A study of Mus musculus with 6 samples.

Results

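Coenzyme Q (ubiquinone, CoQ) biosynthesis genes were followed in mouse beige adipocytes, as the rows of the deposited count table named Pdss1, Pdss2, Coq2, Coq3, Coq4, Coq5, Coq6, Coq7, Coq9 and Coq10a. All 10 were among the 13962 genes of the table, each on 1 row, and all 10 were among the 13192 genes tested. The cells were preadipocytes from the inguinal white depot of C57BL/6 mice, made immortal by large T antigen, with floxed Tle3 alleles and a Cre that the tamoxifen derivative switches on (TLE3F/F CreERT2). All were differentiated with insulin (20 nM), T3 (1 nM), rosiglitazone (1 uM), isobutylmethylxanthine (0.5 mM), dexamethasone (0.5 uM) and indomethacin (0.125 mM), and were harvested on day 10. The 3 control libraries came from cells given ethanol on day 4 for 24 hours, and the 3 libraries labelled TLE3 knockout from cells given 4-hydroxytamoxifen (500 nM) at that time. No group without Cre received the compound, so effects of the compound, of Cre and of the deletion cannot be told apart, and nothing says that the libraries of a group were separate cultures, so p-values reflect only how these libraries varied, possibly for technical reasons.

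CoQ is a lipid of the inner mitochondrial membrane that carries electrons from complexes I and II and from several other dehydrogenases to complex III. Its long polyprenyl tail is made from the mevalonate pathway, joined to an aromatic ring, and the ring is then hydroxylated, decarboxylated and methylated by enzymes that sit together on the matrix side of that membrane. Fat that burns fuel for heat is rich in mitochondria and draws on the same electron carrier when it oxidizes fatty acids.

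Libraries held 14606228 to 19294632 counts. Tle3 itself stood at 151.3 to 152.1 CPM (read counts scaled to library size) in the controls and 286.9 to 294.2 CPM in the libraries labelled knockout. The value goes against the label. It does not check it, since counts over the whole gene also take in exons outside a deleted stretch, and directions below compare the libraries labelled knockout with the controls. The 8 adipocyte markers, all in the table, summed to 9560.2 to 11386 CPM in controls and 10642 to 12235 CPM in the other group. Most of this sum came from Fabp4 and Lpl. Lpl was lower in the libraries labelled knockout, at a mean of 3390 against 3792 CPM, without overlap (edgeR adjusted p 0.0992). The fitted change of the other 7 lay above 0. The 8 brown and beige fat markers summed to 575.7 to 693.6 CPM in controls and 935.2 to 1088 CPM in the libraries labelled knockout. By the test described below, 2 of the 8 adipocyte markers and 6 of the 8 brown and beige fat markers rose. Of 9 preadipocyte and fibroblast markers, 7 were in the table, at a sum of 7629 to 8721 CPM in controls and 7480 to 7863 CPM in the other group, most of it from collagen genes. By the same test Dlk1, a preadipocyte marker, rose from 86.9 ± 19.6 to 144 ± 4.44 CPM, and the mesenchymal markers Thy1 and Pdgfra fell, by 0.42 and 0.38 on the log2 scale (edgeR adjusted p 0.00363, 0.00473 and 0.0134 in this order). Pdgfra was not called without knockout 2 or knockout 3 (edgeR adjusted p 0.0541 to 0.0589), and the part of these markers in the members' values was not tested. For macrophages and leukocytes 3 of 6 markers were in the table, at a sum of 3.66 to 5.39 CPM over the 6 libraries, with Ptprc, Adgre1 and Itgam not listed. For endothelium 3 of 4 markers summed to 1.96 to 3.55 CPM, and of 6 skeletal muscle markers the 1 listed stood at 10.3 to 12.5 CPM. In RNA from whole cultures, a change in the share of cells that express a gene and a change in RNA per cell cannot be told apart.

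Levels of the members were compared per length with the authors' FPKM (fragments per length of gene and per library depth), which are deposited as whole numbers. Coq5 and Coq9 were the most abundant, at a mean over the 6 libraries of 57.8 (range 50 to 66) and 57.2 (50 to 63). Coq6 followed at 22.2 (19 to 25), then Coq3 at 14 (13 to 15), Coq2 at 12.7 (12 to 14), Coq10a at 10.5 (10 to 11), Coq7 at 9 (8 to 10) and Pdss1 at 6.33 (5 to 7). Coq4, listed at 3 in every library, and Pdss2, at 2.67 (2 to 3), were the lowest. The ranges of Coq5 and Coq9, of Coq3 and Coq2, of Coq10a and Coq7, and of Coq4 and Pdss2 overlapped or touched. Within every single library, however, Coq3 stood above Coq2 and Coq10a above Coq7. Coq4 was at or above Pdss2 in each, and the order of Coq5 and Coq9 varied between libraries. With CPM divided by the exon length in GENCODE M21 instead, Coq9 (57.3 CPM per kilobase) came before Coq5 (38.8) and Pdss1 (6.35) before Coq7 (5.76), and the other ranks were as above.

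Upstream sequence is shown for 2 of the members that rose and for the gene of the pathway that rose most, so that their CCAAT boxes can be compared. The window of Pdss1 was mostly exonic and is not shown. RefSeq (GRCm38.p6) gave start sites for 9 of the 10 members, all but Coq5. The stretches below lie within the 250 bases before the start, run 5′ to 3′, leave out bases that GENCODE M21 places in an exon, and carry in capitals each CCAAT box, the element bound by NF-Y, on either strand (ATTGG on the other strand). Coq8a, a gene outside the member set that is described below, is shown at the upstream of its 2 RefSeq starts; the window of the other start has no CCAAT box.
Coq6, chr12:84361834-84361952, plus strand: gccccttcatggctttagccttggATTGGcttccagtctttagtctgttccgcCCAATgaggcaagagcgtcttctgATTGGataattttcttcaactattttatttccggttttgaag
Coq2, chr5:100674285-100674506, minus strand: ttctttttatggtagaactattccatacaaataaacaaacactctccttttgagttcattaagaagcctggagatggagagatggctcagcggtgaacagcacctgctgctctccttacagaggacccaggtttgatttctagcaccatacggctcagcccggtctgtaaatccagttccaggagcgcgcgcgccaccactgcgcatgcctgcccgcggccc
Coq8a, chr1:180196076-180196270, minus strand: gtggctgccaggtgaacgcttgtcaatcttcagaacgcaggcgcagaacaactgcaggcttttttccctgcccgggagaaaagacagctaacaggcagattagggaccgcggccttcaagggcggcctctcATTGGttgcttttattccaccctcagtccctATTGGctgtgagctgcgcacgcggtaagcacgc
The Coq6 stretch holds 3 CCAAT boxes in 119 bases, the Coq8a stretch holds 2 in 195 bases, and the Coq2 stretch of 222 bases has no match. Over the full 250 bases, Coq6 and Coq7 were the 2 of 9 members with a CCAAT box. Of 27025 RefSeq genes, 37.5% had one at any of their starts. Coq10b, a gene outside the member set that did not rise by the test described below, also had one. Searched on both strands of the same windows, an NRF1-type motif (GCGCA and GCGC with 1 base between them, at 4.23% of genes), an estrogen-related receptor motif (TNAAGGTCA, 1.3%) and an EBF-type motif (TCCC and GGGA with 2 bases between them, 0.914%) had no match in the 9 members or in Coq8a. Such matches describe letters in a window and are not binding sites.

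Of the 10 CoQ biosynthesis genes, 4 rose in the libraries labelled knockout: Pdss1, Coq2, Coq5 and Coq6. The other 6 did not pass the threshold, and the fitted change of all 10 lay above 0, between 0.03 and 0.36 on the log2 scale. A gene is said to rise or fall where its edgeR quasi-likelihood p, adjusted over all tested genes, is under 0.05. By this rule 6.91% of all tested genes rose, 5.44% fell, and 12.3% changed in either direction. The median log2 fold change was 0.20 over the members and −0.0025 over all tested genes. The groups did not overlap for 6 members, all higher in the libraries labelled knockout, whereas 16.0% of tested genes were separated in that direction. The members that rose numbered 2 without control 1, control 3 or knockout 2, and 1 without knockout 3, where the share of all tested genes that rose was 4.17%, 4.69%, 4.22% and 2.49% in the same order. They numbered 5 without control 2 and 3 without knockout 1, beside 7.68% and 6.05% of tested genes. With DESeq2, limma-voom, library size alone and a replicate block, 3, 4, 3 and 3 members rose, beside 5.82%, 6.87%, 6.52% and 7.82%.

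**Figure D1:**
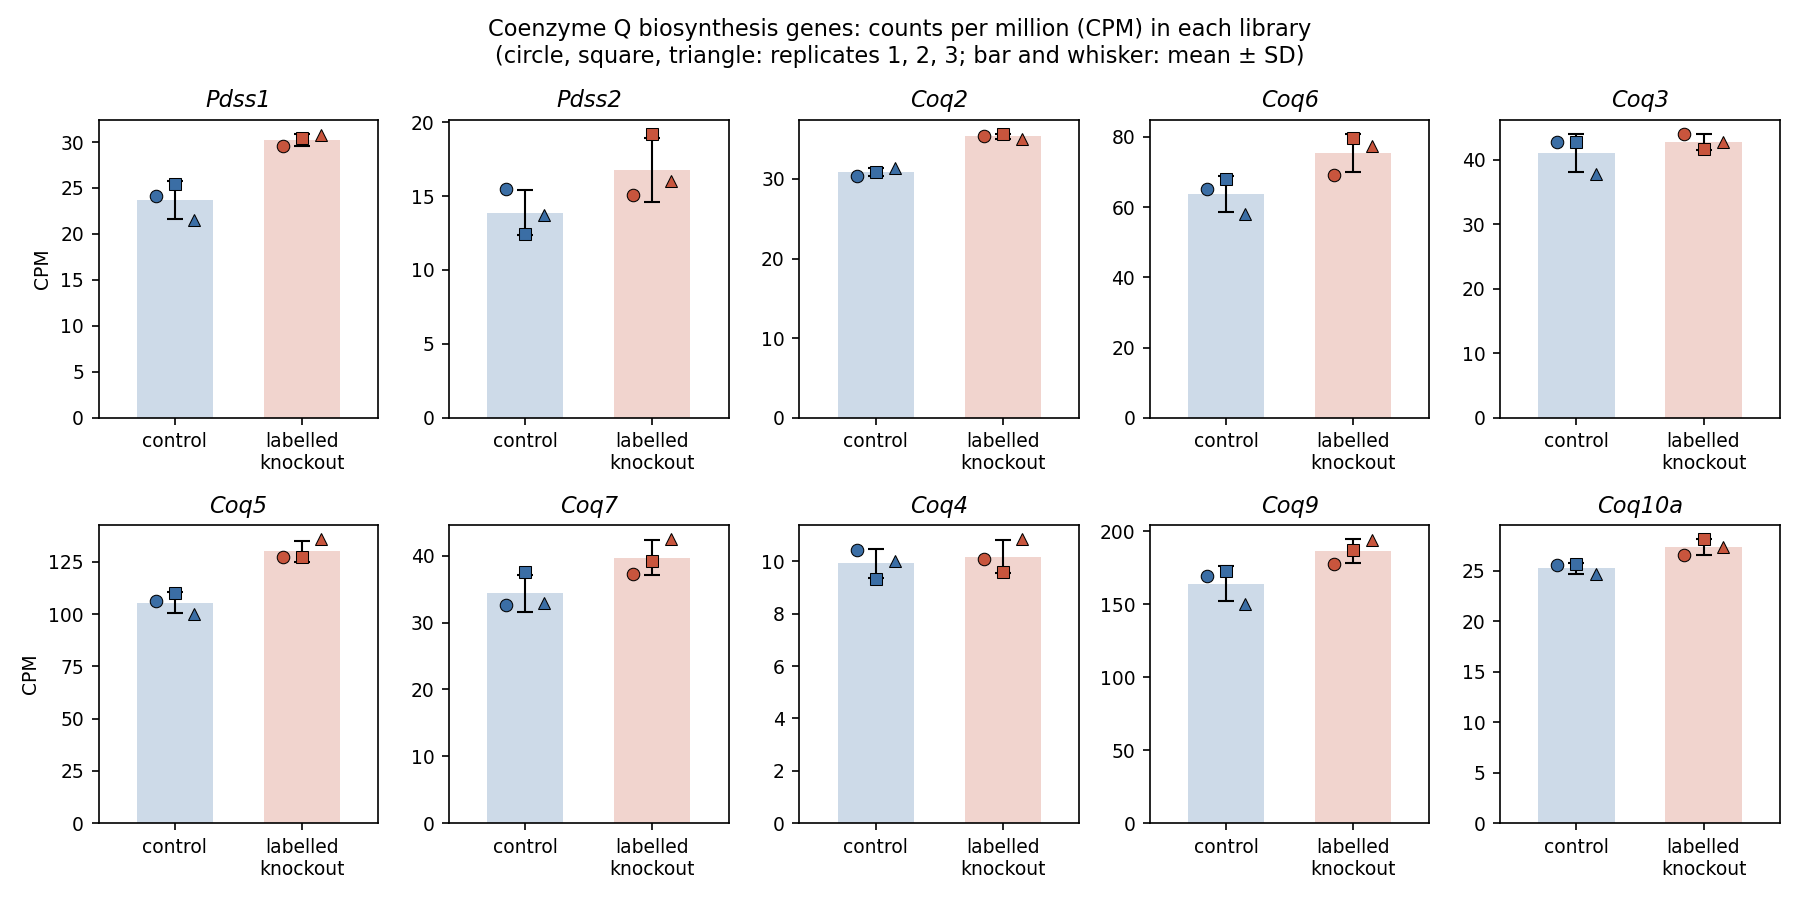
CPM (vertical axis, from 0) of each of the 10 members in the 3 control and 3 labelled knockout libraries, with points for replicates 1 to 3 and bars with whiskers for the mean ± SD. The 2 groups do not overlap for Pdss1, Coq2, Coq5, Coq6, Coq9 and Coq10a, and they overlap for Pdss2, Coq3, Coq4 and Coq7.

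Side-chain synthesis and attachment held 2 of the 4 rises. PDSS1 and PDSS2 are the subunits of the prenyl diphosphate synthase that builds the tail. Pdss1 (ENSMUSG00000026784) stood at 24.1, 25.4 and 21.5 CPM in the controls, numbered 1 to 3, and at 29.6, 30.4 and 30.8 CPM in the libraries labelled knockout, here also called knockout 1 to 3. Every library labelled knockout lay above every control, and control 3 was the lowest. On average Pdss1 reached 30.3 ± 0.639 CPM against 23.7 ± 2.02 CPM (SD, n = 3 each). It rose 1.28-fold (log2 0.36, SE 0.072, 95% interval 0.20 to 0.52; edgeR adjusted p 0.00953), and without knockout 3 the edgeR adjusted p was 0.051. Pdss2 (ENSMUSG00000038240) stood at 15.5, 12.5 and 13.7 CPM in controls and 15.1, 19.2 and 16.0 CPM in the libraries labelled knockout. Its groups overlapped, with control 1 above knockout 1. Its log2 fold change was 0.27 with an interval of 0.02 to 0.51 (edgeR adjusted p 0.143), an interval that also holds the value of Pdss1. The ratio of Pdss1 to Pdss2 CPM was 1.56, 2.04 and 1.57 in controls and 1.96, 1.58 and 1.92 in the libraries labelled knockout, and the mean log2 ratio differed by 0.085 (exact two-sided permutation p = 0.8, where 3 against 3 libraries cannot go below 0.1).

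COQ2 is the membrane enzyme that joins the tail to the ring precursor. Coq2 (ENSMUSG00000029319) was at 30.4, 30.9 and 31.4 CPM in controls and 35.4, 35.7 and 35.0 CPM in the libraries labelled knockout. It had the narrowest spread of the members, with a coefficient of variation of 1.62% in controls and 0.922% in the other group, both below the 4.68% that counting alone gives at its smallest library count of 457. Its means of 30.9 ± 0.499 and 35.4 ± 0.326 CPM differed 1.14-fold (log2 0.19, SE 0.052; edgeR adjusted p 0.0343). This call was lost without any 1 of the 6 libraries (adjusted p 0.055 to 0.102), with DESeq2 (adjusted p 0.155) and with library size alone (edgeR adjusted p 0.0532), while the log2 fold change without 1 library ran from 0.19 to 0.21.

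Among the ring-modifying enzymes 2 of 4 rose. COQ6, a flavin monooxygenase, adds a ring hydroxyl group, COQ5 is the C-methyltransferase, COQ3 the O-methyltransferase, and COQ7 a di-iron hydroxylase. Coq5 (ENSMUSG00000041733) stood at 106.4, 109.9 and 100.2 CPM in controls and at 127.2, 127.1 and 135.8 CPM in the libraries labelled knockout. The gap between the groups was wider than the spread within either. The means of 105.5 ± 4.89 and 130.05 ± 4.98 CPM differed 1.23-fold (log2 0.30, SE 0.049, 95% interval 0.20 to 0.41; edgeR adjusted p 0.00327). Coq5 was the one member called without each library in turn (edgeR adjusted p 0.00291 to 0.0267). Coq6 (ENSMUSG00000021235) stood at 65.1, 68.1 and 58.1 CPM in controls and 69.1, 79.6 and 77.4 CPM in the libraries labelled knockout. Control 2 and knockout 1 nearly met. Its 1.18-fold rise (63.8 ± 5.14 to 75.4 ± 5.50 CPM, edgeR adjusted p 0.0421) was no longer called when control 1, control 3, knockout 2 or knockout 3 was left out, with edgeR adjusted p of 0.0873 to 0.158.

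The other 2 ring enzymes did not pass the threshold. Coq7 (ENSMUSG00000030652) was at 32.7, 37.6 and 33.0 CPM in controls and 37.3, 39.3 and 42.5 CPM in the libraries labelled knockout, with control 2 just above knockout 1. Its log2 fold change was 0.21 (interval 0.05 to 0.36; edgeR adjusted p 0.0787), and it was called without control 2 (edgeR adjusted p 0.0236). Coq3 (ENSMUSG00000028247) was at 42.8, 42.7 and 37.7 CPM in controls and 44.02, 41.6 and 42.7 CPM in the libraries labelled knockout. Control 3 alone stood low, and the groups otherwise shared their range. Its log2 fold change was 0.06 (interval −0.07 to 0.20; edgeR adjusted p 0.553), so the data allow a rise of up to 1.14-fold, and without control 3 it was 0.0039.

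COQ4 and COQ9 belong to the same enzyme assembly, COQ9 as the lipid-binding partner of COQ7, and COQ10A is a CoQ-binding protein needed for the carrier to work rather than for its synthesis. None of these 3 genes passed the threshold. Coq9 (ENSMUSG00000031782) was at 169.5, 172.4 and 150.02 CPM in controls and 177.5, 186.7 and 194.1 CPM in the libraries labelled knockout. The groups did not overlap, and control 3 was again the lowest. Its means of 164 ± 12.2 and 186.1 ± 8.29 CPM differed 1.14-fold (log2 0.18, interval 0.06 to 0.31; edgeR adjusted p 0.0597), and it was called without control 2 (edgeR adjusted p 0.0326). Coq10a (ENSMUSG00000039914) was at 25.5, 25.7 and 24.7 CPM in controls and 26.6, 28.1 and 27.3 CPM in the libraries labelled knockout, separate groups with a log2 fold change of 0.11 (interval −0.02 to 0.25; edgeR adjusted p 0.249). Coq4 (ENSMUSG00000026798) was at 10.4, 9.34 and 10.0 CPM in controls and 10.1, 9.61 and 10.8 CPM in the libraries labelled knockout. The groups overlapped throughout, at a log2 fold change of 0.03 (interval −0.17 to 0.24; edgeR adjusted p 0.855). Coq4 rested on the fewest reads of the members, 138 to 196 per library, and 27.1% of its exon length in GENCODE M21 lies opposite exons of Trub2. The authors' strand setting is not given in the sources used here, so reads of the 2 genes may be mixed.

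**Figure D2:**
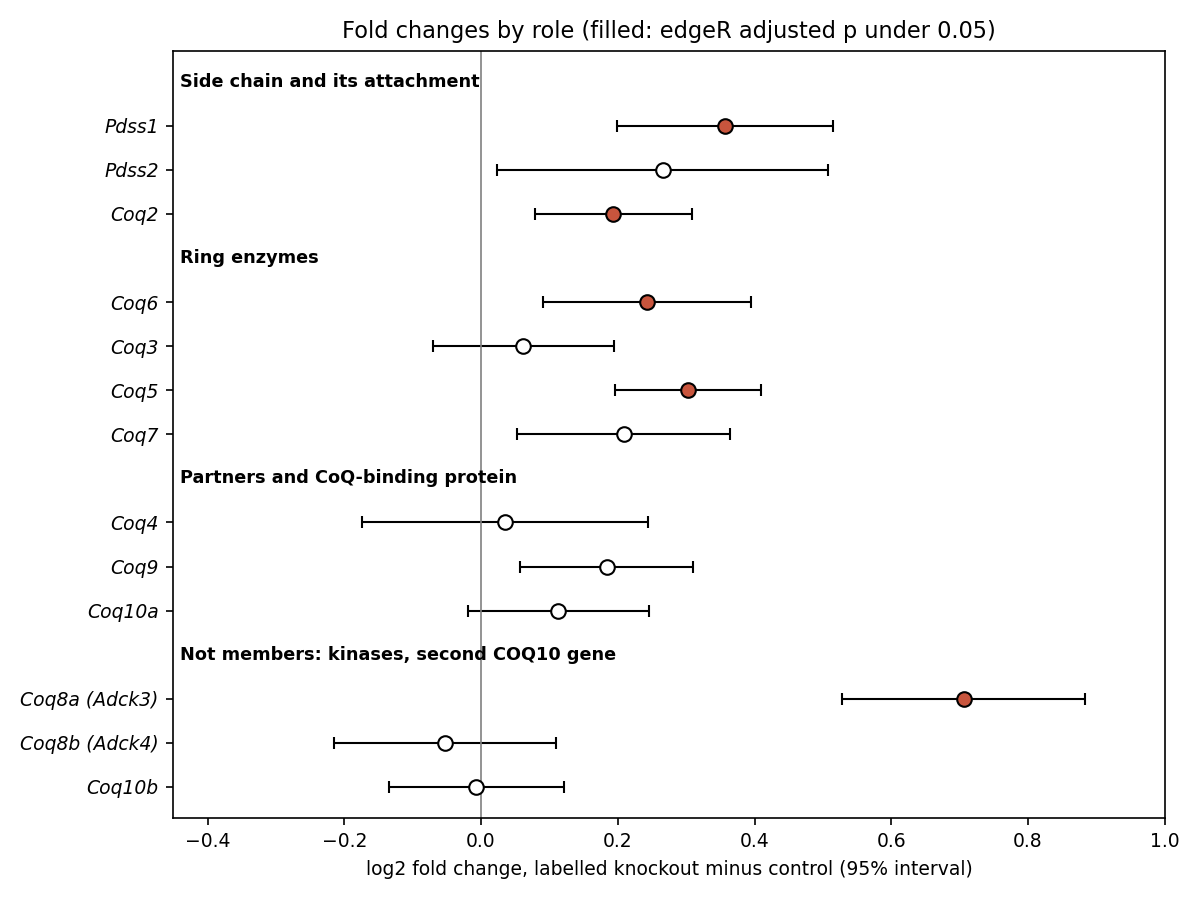
Log2 fold change (labelled knockout minus control, horizontal axis) with its 95% interval for the members by role and for 3 related genes outside the set, filled where the edgeR adjusted p is under 0.05. Pdss1 and Coq5 stand highest among the members that rose, the intervals of Coq3, Coq4 and Coq10a include 0, and Coq8a lies to the right of all members at 0.71.

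Across the members, control 3 was the library with the lowest value for 6 of 10. In no member did a library labelled knockout hold the lowest value or a control the highest. The latter pattern can also hold where the groups overlap. How often either pattern held over all tested genes was not counted. The mean deviation of the members from their own average, on the log2 scale of CPM plus 0.5, was −0.064, −0.065 and −0.16 in the 3 controls in order and 0.048, 0.12 and 0.13 in the libraries labelled knockout. The same measure over the adipocyte markers was −0.031, −0.00046 and −0.25 in controls and 0.00064, 0.15 and 0.13 in the libraries labelled knockout, and over the preadipocyte and fibroblast markers it was −0.00089, −0.17 and 0.19 in controls and 0.063, −0.14 and 0.059 in the libraries labelled knockout. The brown and beige fat markers gave −0.17, −0.16 and −0.36 in controls and 0.10, 0.36 and 0.24 in the libraries labelled knockout. Control 3 was thus low in the members and in both sets of fat markers, and the part of marker level in the members' values was not tested. Without control 3 the log2 fold change was 0.29 for Pdss1, 0.27 for Coq5, 0.18 for Coq6 and 0.12 for Coq9.

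Among 10569 non-member genes averaging 5 CPM or more, those whose log2 CPM over the 6 libraries followed the mean of the standardised members most closely were Ppp2r1a, Phb2, Gnpat, Mff and Cox10 (Pearson r 0.996 to 0.999). These r values share the same 6 libraries and the same group difference and are given as a description. Of the 5, PHB2 is a scaffold of the inner mitochondrial membrane and MFF a fission receptor of the outer membrane. COX10 joins a prenyl tail to heme. Ppp2r1a, the closest at r 0.999, did not pass the threshold (edgeR adjusted p 0.07), and a function shared by the 5 was not tested. In 2 members the start site lay within 1000 bases of a coding gene on the other strand, with the first exons overlapping. Coq9 and Ciapin1, a cytosolic iron-sulphur protein gene, started 37 bases into each other, and Ciapin1 went from 102.9 ± 4.55 to 120.4 ± 7.16 CPM (log2 0.23; edgeR adjusted p 0.0202). Coq6 and Fam161b started 176 bases into each other, and exons of Fam161b lay opposite 4.07% of the exon length of Coq6. Fam161b was at 6.02 ± 0.353 and 6.60 ± 0.937 CPM (edgeR adjusted p 0.551).

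Outside the 10 members, Coq8a had a larger fold change than any of them. COQ8A and COQ8B, listed in the table as Adck3 and Adck4, are atypical kinase-like ATPases that support the ring-modifying assembly. Coq8a stood at 179, 170.1 and 138.2 CPM in controls and 252.2, 265.7 and 276.4 CPM in the libraries labelled knockout. The groups were far apart, and it rose 1.63-fold (log2 0.71, SE 0.081, 95% interval 0.53 to 0.88; edgeR adjusted p 0.000506, and 3.52e-05 to 0.00531 with each library left out in turn). Coq8b stood at 21.8, 21.8 and 22.6 CPM in controls and 19.6, 21.4 and 22.9 CPM in the libraries labelled knockout (log2 −0.05, interval −0.21 to 0.11; edgeR adjusted p 0.695). The ratio of Coq8a to Coq8b CPM was 8.20, 7.80 and 6.13 in controls and 12.9, 12.4 and 12.1 in the libraries labelled knockout, with no overlap. The mean log2 ratio differed by 0.77 (exact two-sided permutation p = 0.1, the smallest that 3 against 3 libraries allow), a comparison chosen after the values were seen. In GENCODE M21, 6.91% of the exon length of Coq8a lies opposite Cdc42bpa.

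Coq10b is the second COQ10 gene, and neither it nor Coq10a passed the threshold. Coq10b was at 65.2, 65.0 and 57.0 CPM in controls and 60.5, 63.4 and 62.3 CPM in the libraries labelled knockout (log2 −0.0071, interval −0.14 to 0.12; edgeR adjusted p 0.954). The ratio of Coq10a to Coq10b CPM was 0.392, 0.394 and 0.432 in controls and 0.439, 0.444 and 0.439 in the libraries labelled knockout. These ranges did not overlap, control 3 lay next to the labelled knockout values, and the mean log2 ratio differed by 0.119 (exact two-sided permutation p = 0.1).

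**Figure D3:**
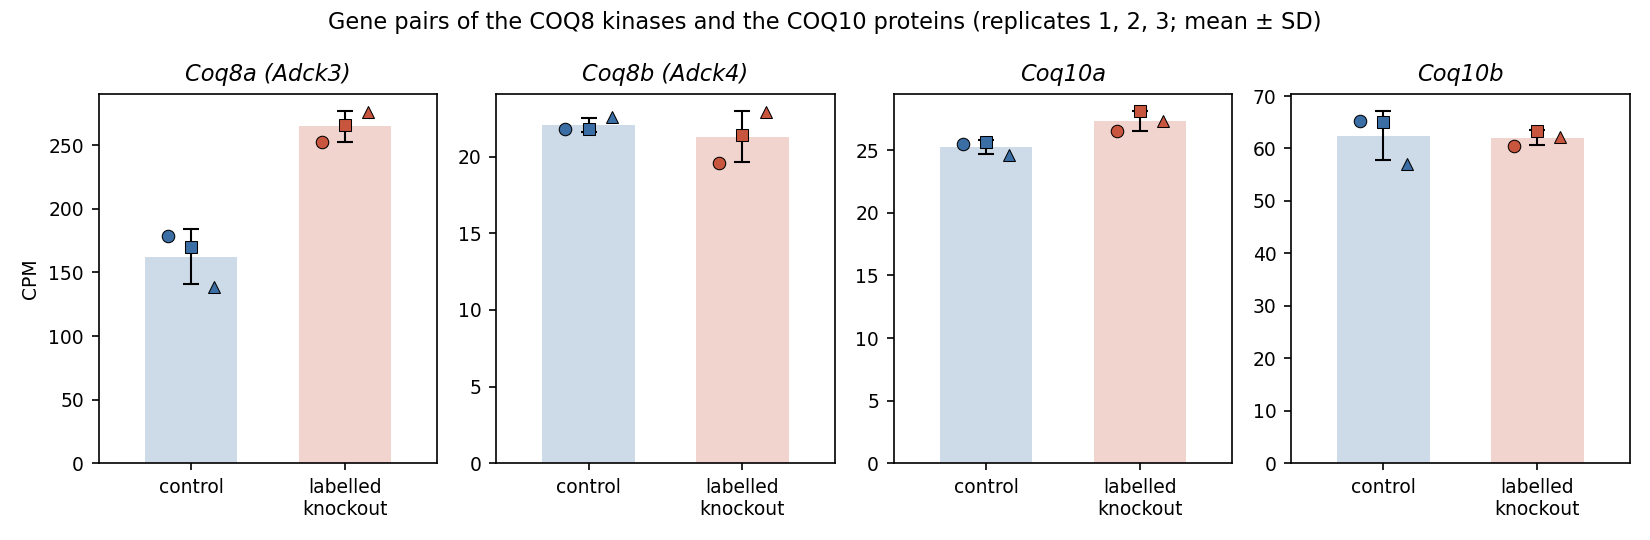
CPM (vertical axis, from 0) of Coq8a, Coq8b, Coq10a and Coq10b in each library, with points for replicates 1 to 3 (circle, square, triangle) and bars with whiskers for the mean ± SD. Coq8a separates the groups widely and Coq10a narrowly, whereas the groups overlap for Coq8b and Coq10b.

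Of 11 genes in the list of kinases, the second COQ10 gene and helpers of the pathway, 4 rose, with a median log2 fold change of 0.19. Beside Coq8a these were Fdx1 (1.26-fold, 28.5 ± 0.473 to 35.9 ± 3.65 CPM), a mitochondrial ferredoxin gene, Pptc7 (1.17-fold, 58.2 ± 3.13 to 67.8 ± 3.21 CPM), a mitochondrial matrix phosphatase gene, and Oxa1l (1.14-fold, 82.0 ± 2.47 to 93.3 ± 3.03 CPM), which encodes an inner-membrane insertase. In edgeR their adjusted p lay between 0.0151 and 0.0239. Each of these 3 calls was lost without control 1 or knockout 3 (edgeR adjusted p at most 0.118), that of Fdx1 also without knockout 2, that of Pptc7 also without control 3 or knockout 1, and that of Oxa1l also without control 3 or knockout 2. The number that rose was 1 without control 1 or knockout 3 and 2 without control 3.

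The mevalonate pathway supplies the units of the tail. Its 9 tested precursor genes had a median log2 fold change of −0.060. Of 12 genes of the sterol branch, which competes for the same precursor, 1 passed, Sc5d, which fell from 50.2 ± 1.58 to 42.4 ± 0.827 CPM (log2 −0.24; edgeR adjusted p 0.00847), with a list median of −0.083. That count was 2, both lower, without control 2 or control 3 and with library size alone, settings in which 6.52%, 3.33% and 6.25% of tested genes fell.

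Genes whose proteins pass electrons to CoQ moved in both directions. Of 13 tested genes outside complexes I and II, 6 rose and 1 fell, with a median of 0.17. The electron-transferring flavoprotein route of fatty acid oxidation rose at all 3 of its genes: Etfdh, the CoQ reductase of that route (1.23-fold, 368.2 ± 28.4 to 451.8 ± 26.6 CPM), Etfa (1.24-fold) and Etfb (1.22-fold). Prodh, proline dehydrogenase, rose 1.67-fold from 5.26 ± 0.899 to 8.77 ± 0.935 CPM. Aifm2, which encodes the CoQ reductase FSP1 of the plasma membrane and lipid droplets, rose 1.19-fold. Chdh, choline dehydrogenase, fell from a mean of 8.27 to 5.14 CPM, with SDs of 1.501 and 0.392 (log2 −0.68). Among these 6 named genes the edgeR adjusted p lay between 0.00824 and 0.0229. Prodh was called without each library in turn. Etfdh (0.0731) and Aifm2 (0.0845) were lost without knockout 3, Etfb and Chdh without knockout 2 or knockout 3, and Etfa without control 1, knockout 2 or knockout 3 (edgeR adjusted p 0.056 to 0.113 over these 3). The changed genes of the list numbered 3 without knockout 2 and 1 without knockout 3.

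Most genes of the respiratory complexes that reduce and oxidize CoQ rose. In complex I, 33 of 36 genes rose with a median of 0.32, led by the adjusted p of Ndufa11 (1.31-fold), Ndufa6 (1.29-fold) and Ndufs6 (1.35-fold), at edgeR adjusted p of 0.000445 to 0.00183. In complex II, 3 of 4 rose with a median of 0.26 (Sdhb, Sdhd and Sdhc), and 1 rose without knockout 2 or knockout 3; Sdhc was also lost without control 1 or control 3 (edgeR adjusted p of its lost calls 0.0972 to 0.157). In complex III, which takes electrons from the carrier, 8 of 9 rose with a median of 0.27, led by Uqcr10, Uqcrb and Uqcrfs1, and 2 rose without knockout 3, Uqcrfs1 not among them (edgeR adjusted p 0.0557). The members' median of 0.20, and their 4 of 10, stand beside these values, and the difference between the lists was not tested.

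**Figure D4:**
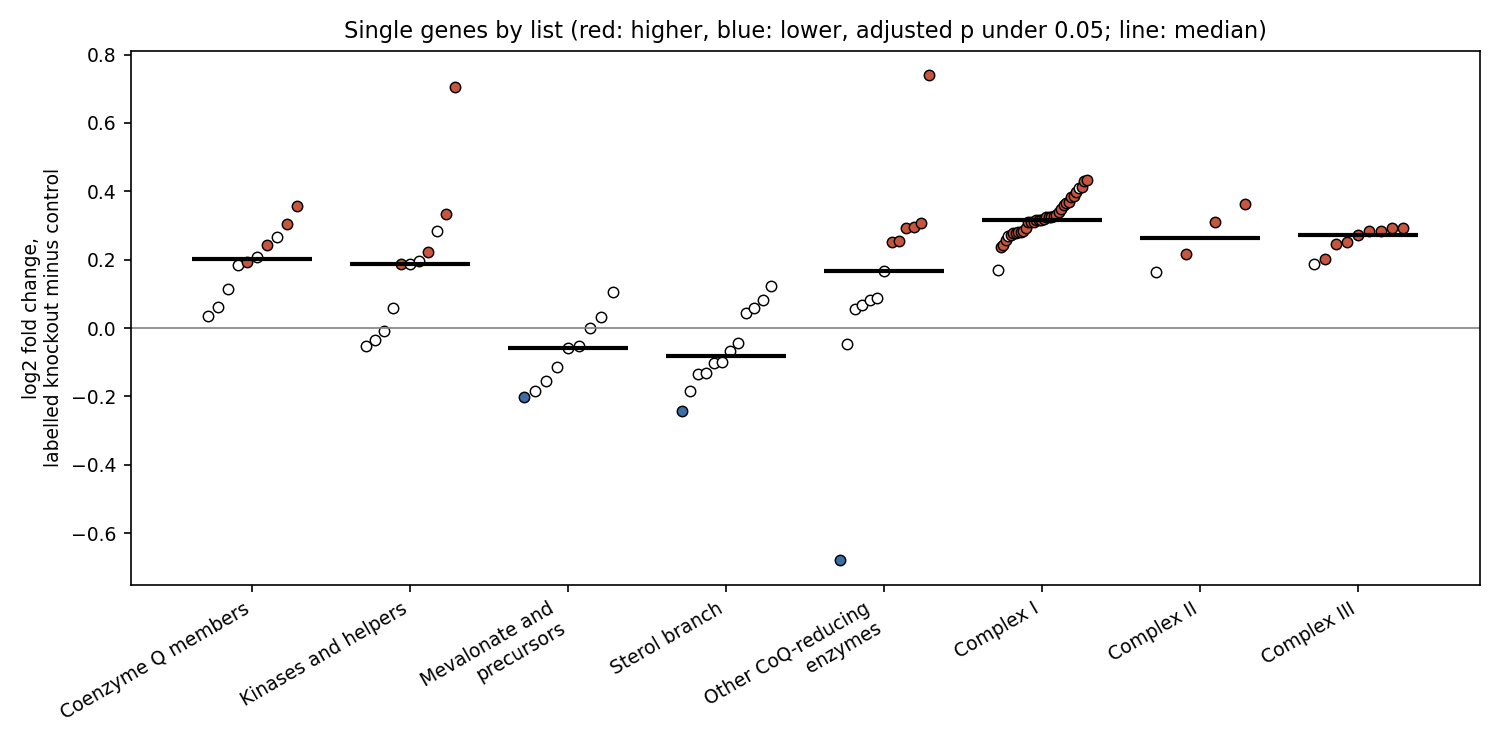
Log2 fold change (vertical axis) of each tested gene in the member set and in 7 related lists, sorted within each list, red where a gene rose and blue where it fell, with the list median as a line. Medians are 0.20 for the members, −0.060 and −0.083 for the mevalonate and sterol lists, and 0.32, 0.26 and 0.27 for complexes I, II and III.

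**Figure D5:**
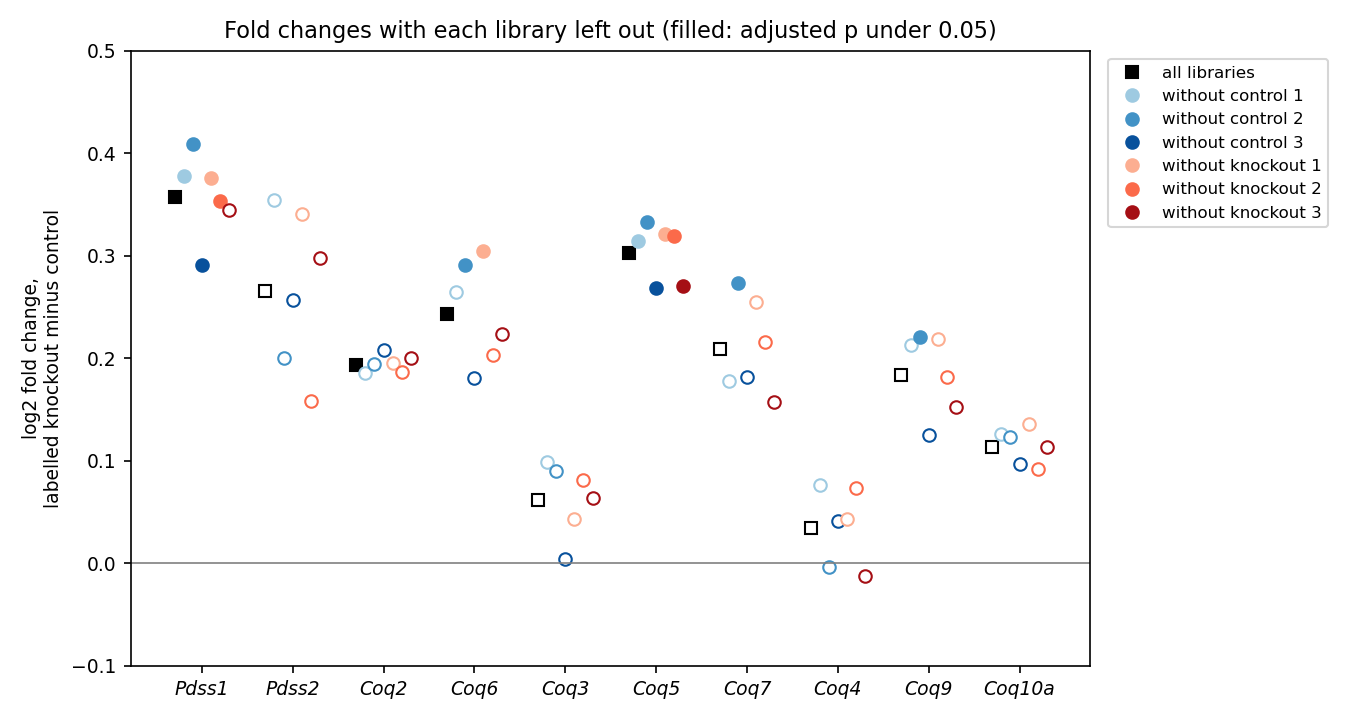
Log2 fold change (vertical axis) of each member with all libraries (squares) and with each library left out (circles), filled where the edgeR adjusted p is under 0.05. Coq5 is filled throughout, Pdss1 in all but the fit without knockout 3, and Coq2 only with all libraries.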

How the data were processed

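Poly(A) RNA of 6 libraries was measured with a stranded kit, per the labels' protocols. The authors deposited, per the file headers, whole-number counts of reads for each gene and FPKM values rounded to whole numbers, which are treated as a score and used only for levels between genes. Novoalign 2.8, DESeq2, Picard and build mm9 are named, per the submitters' processing notes. Their roles and the read counter, annotation and strand setting were not given in the sources used here. Reads shared with overlapping genes are therefore uncertain.

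Counts were fitted with edgeR 4.0.16 (R 4.3.3): package expression filter (13192 of 13962 genes kept), TMM scaling, quasi-likelihood test of the group alone, Benjamini-Hochberg adjustment over all tested genes, threshold 0.05. CPM use TMM-scaled library sizes. The SE was obtained from the log2 fold change and the F statistic. The biological coefficient of variation that edgeR estimated across all tested genes was 5.25%. In simulated counts for this comparison (13077 genes, 200 of them changed), every gene had the same biological coefficient of variation. There, 49% of genes changed by 0.3 and 97% of those changed by 1 on the log2 scale were called. In the data 12.3% of tested genes were called, a larger share than was changed in the simulation. The simulated shares therefore do not carry over to the members. A gene that was not called may still have changed. Libraries of a group were distinct (chi-square per degree of freedom 2.97 to 7.81 between them). Alternatives were DESeq2 1.42.0, limma-voom 3.58.1, no filter, library size alone, a replicate block and each library left out.

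Members and lists were chosen with earlier results of these data known. The rule for named genes took all members, every passing gene of the helper, precursor and CoQ-reducing lists with Coq8a, Coq8b, Coq10b and Etfdh, up to 3 passing genes of the sterol list and of each complex, the 5 genes most like the members, Tle3, and the markers. Adipoq, Fabp4 and Ucp1 are given within the marker sums. The neighbouring genes and overlaps were looked up in GENCODE M21 (GRCm38), and upstream sequences in RefSeq GRCm38.p6, after the values were seen. No sequence is shown for Coq5. Some genes that this rule names are not reported here.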

Additional observations from a re-analysis of the deposited data

How the results depend on the processing

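All 11 alternatives kept the fitted direction of every member except Coq4, whose log2 fold change ran from −0.012 to 0.076 with 1 library left out, and of the named helper, precursor, sterol and CoQ-reducing genes except Coq8b (−0.11 to 0.0087) and Coq10b (−0.068 to 0.032). With 1 library left out in turn, a fit with fewer samples, all changed genes numbered 621 to 1895, members 1 to 5, kinases and helpers 1 to 5, mevalonate genes 0 to 1, sterol genes 1 to 2, CoQ-reducing enzymes 1 to 7, and genes of complexes I, II and III 24 to 34, 1 to 4 and 2 to 9. With library size alone 2 sterol genes passed, and the cause was not tested. Members that rose numbered 3 with DESeq2 and 4 with limma-voom. The ratios kept their direction when 1 library was left out, at 0.093 to 0.165 for Coq10a to Coq10b, 0.020 to 0.214 for Pdss1 to Pdss2 and 0.637 to 0.848 for Coq8a to Coq8b. The replicate numbers were not shown to pair the samples. Deviations from the group means correlated at −0.040, 0.191 and 0.031 between same-numbered libraries, and not every library correlated best with its own number. Deviations within a group of 3 libraries depend on each other, so this check cannot settle whether the samples were paired. With the replicate number as a block, 1809 genes changed and 3 members rose (Coq2 had an edgeR adjusted p of 0.0565), and the ratio differences were 0.119, 0.085 and 0.766 (sign-flip tests of 3 pairs cannot go below an exact p of 0.25). At 138 to 474 reads per library for Pdss1, Pdss2 and Coq4, counting error alone limits what small changes can be seen.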
